A study of Homo sapiens with 2 samples.

Results

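The genes described here are 30 genes of the p53 response, chosen by name, measured in K562 cells, a human erythroleukemia line that is known to lack working p53. An mRNA level was read as the signal of a probe set, a group of probes for the same transcript on an Affymetrix array. The array annotation gave 28 of the 30 genes a probe set under their symbol alone, 76 probe sets in all out of 54675. BTG2 and FDXR were not analysed here. One K562 culture was nucleofected (electroporated) with 3 µg of a miR-34a mimic, a synthetic copy of that microRNA, and the other with 3 µg of a control mimic matching no human gene. Total RNA was taken after 24 hours, and each group was 1 culture on 1 array. Every value below is therefore a single measurement, the spread between cultures is unknown, and no p-value between the groups can be given. Precision is limited by this number of arrays.

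The protein p53 is a transcription factor that is held low by MDM2 and MDM4 and released after DNA damage or other stress. It then raises genes that stop the cell cycle, repair DNA, adjust metabolism or start cell death. The microRNA gene MIR34A is itself one of the genes that p53 raises, and mature miR-34a lowers mRNAs that pair with its seed, so in ordinary cells it is one arm of the p53 response. In K562 cells the mimic was supplied without the transcription factor.

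The mature strand is shown because it is the agent that differed between the cultures. RefSeq places it on build GRCh38.p14 at chr1:9151735-9151756, minus strand, and the capitals mark the seed, bases 2 to 8.
hsa-miR-34a-5p: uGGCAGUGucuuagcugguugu

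Both arrays were on a like scale, with a median signal of 40.1 on the miR-34a array and 39.5 on the control array. Signals at or below 75.4 are called within background, this being the highest reading among 27 dim bacterial control probe sets. Reported miR-34a targets checked the treatment: 7 of 8 were lower with the mimic, beside 50% of all expressed genes. Their list was chosen with earlier results of these data known, so the check is not independent. The cell cycle kinase CDK6 read 543.2 on the miR-34a array and 1713.8 on the control array, its 5 expressed probe sets lying between -1.70 and -0.087 in log2 ratio. The exception was the cyclin gene CCND1, which read 441.0 on the miR-34a array and 302.2 on the control array. Erythroid markers marked the cells, 9 of 9 measured being above background and 8 of 9 higher with the mimic. Their summed signal was 32080 on the miR-34a array and 26887 on the control array. Of 5 measured megakaryocyte markers 1 was above background, of 8 myeloid markers 4, of 7 lymphoid markers 3 and of 9 stromal and epithelial markers 6. The ratio of 3′ to 5′ signal for GAPDH, which grows as RNA degrades, was 3.53 on the miR-34a array and 3.07 on the control array. For ACTB the ratio was 4.54 on the miR-34a array and 4.30 on the control array, so both genes had the higher ratio on the miR-34a array. The lymphoid markers summed to 948.1 on the miR-34a array and 1512 on the control array, and the megakaryocyte markers to 555.3 on the miR-34a array and 377.9 on the control array. The myeloid sum was 1030 on the miR-34a array and 917.2 on the control array, and the stromal and epithelial sum 8429 on the miR-34a array and 8704 on the control array. The part of these differences in the values below was not tested. In bulk RNA, fewer cells with a transcript and less of it per cell cannot be told apart.

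No expressed p53 response gene passed 2-fold in either direction. A gene was counted as expressed if its brightest probe set lay at or above the median level of the array, and 24 of the 30 genes were. The log2 ratio of a gene is log2(signal + 14.9) on the miR-34a array less the same on the control array, centred on the median gene, and it understates the change of dim genes. Of the 24 genes, 0 passed 2-fold upwards and 0 passed it downwards, where 0.595% and 0.548% of all 12774 expressed genes did. At 1.5-fold the counts were again 0 and 0, against 3.28% and 3.01% of all expressed genes. PERP lay at that edge: its log2 ratio of -0.57 was -0.64 with a smaller pseudocount of 3.73 and -0.59 with quantile or loess normalization, each past 1.5-fold. Without the pseudocount the signals of PERP differed 1.57-fold and those of DDB2 1.52-fold, and both genes were within background on 1 array. All these counts rest on the brightest probe set of each gene. Dimmer expressed probe sets passed 1.5-fold in SESN2, at -0.74, and MDM4, at -0.61, both above background on both arrays. The SESN2 one is of the less specific _s_at class and the MDM4 one of the less specific _x_at class. A dimmer probe set of TP53INP1 passed 1.5-fold upwards, at 0.71, with the control signal within background. Among the 19 genes above background on both arrays, the ratios ran from -0.42 for SESN2 to 0.36 for RRM2B. The median of the 24 genes was -0.047, which turned to 0.0055 when the less specific probe set classes were left out. By direction alone, 10 genes were higher and 14 lower, beside a background of 50% each way. The interquartile range of the 24 genes lay between -0.20 and 0.14, and that of all expressed genes between -0.17 and 0.17.

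**Figure D1:**
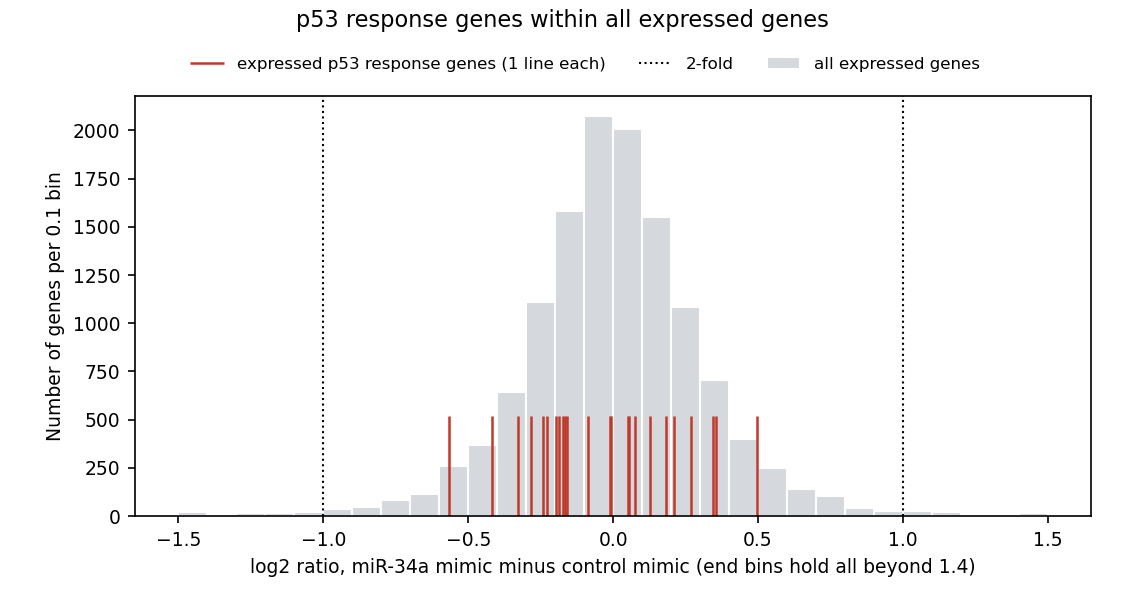
Number of expressed genes (vertical axis) by log2 ratio of miR-34a mimic over control mimic (horizontal axis, bins of 0.1). Grey bars hold all 12774 expressed genes, red lines the 24 expressed p53 response genes, all within 2-fold (the outermost, PERP and DDB2, were within background on 1 array), and dotted lines mark 2-fold.

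Roles were assigned by hand, and the counts by role were singled out after the values were seen. All 4 DNA repair genes were higher on their brightest probe sets, 3 of 4 when probe sets were averaged, with a median log2 ratio of 0.22, and 8 of the 9 expressed death and survival genes were lower, with a median of -0.19. Arrest genes had 3 of 5 higher and a median of 0.13, and the genes that feed back on p53 had 3 of 4 lower and a median of -0.10. Among genes above background on both arrays, 3 of 3 repair genes were higher and 5 of 6 death and survival genes lower. No test between roles was made. Probe sets of the same gene, which read the same RNA on the same array, differed with a pooled SD of 0.24 over all genes that had 2 or more expressed probe sets. The repair genes XPC and POLH lay well under that SD, which covers probe sets and not cultures.

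**Figure D2:**
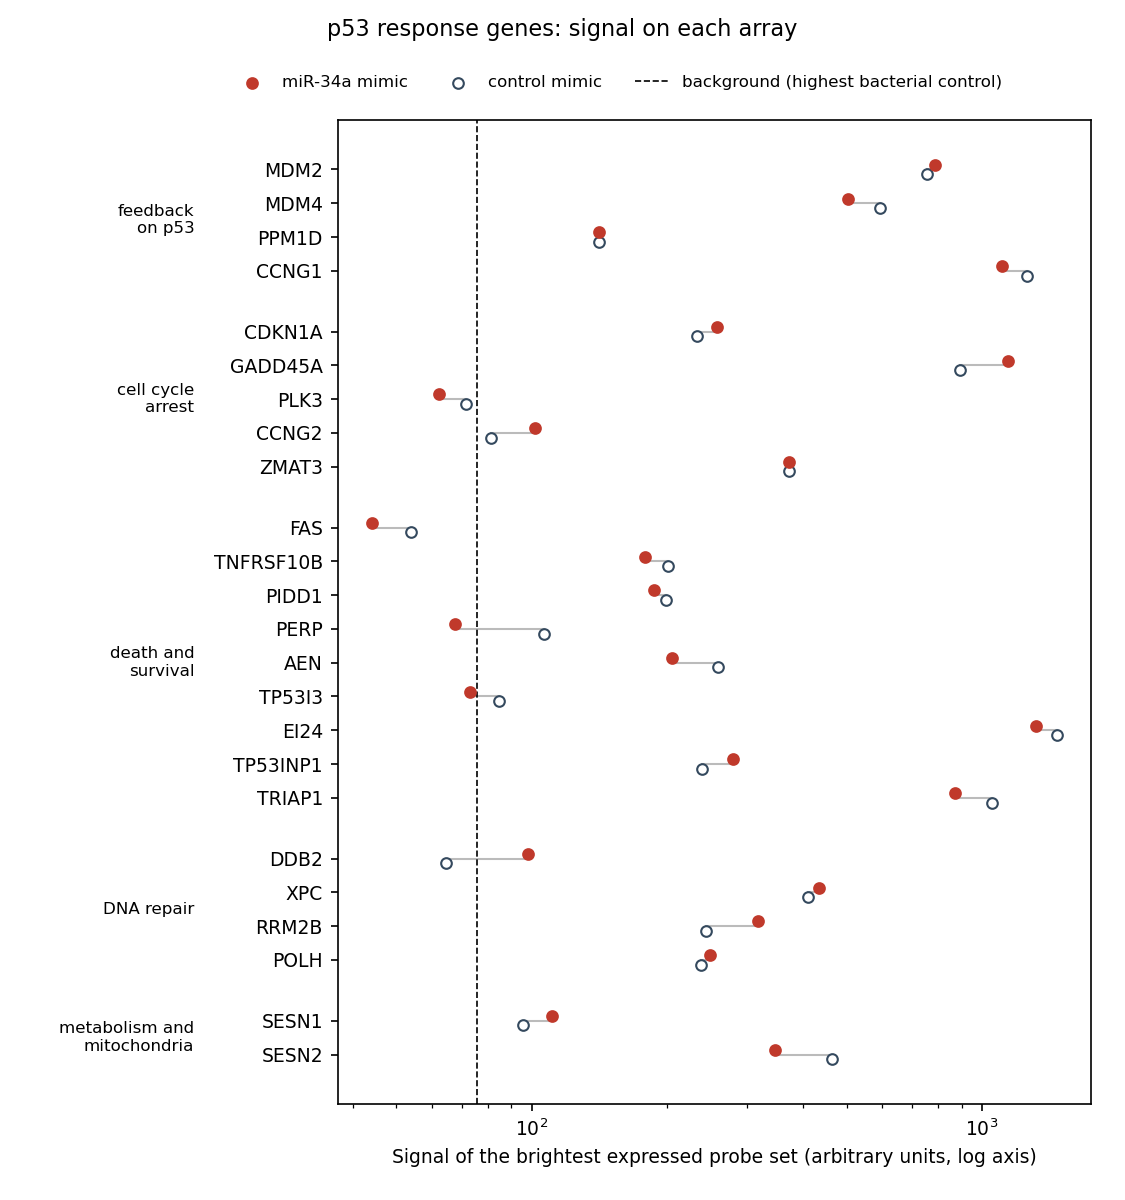
Signal of each expressed gene's brightest probe set (horizontal axis, arbitrary units, log axis) on the miR-34a array (red, above) and the control array (open, below), grouped by role. The dashed line is the background of 75.4, and of the 24 genes 19 lie above it on both arrays, 3 on 1 array and 2 on neither.

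The feedback genes began with MDM2, the ubiquitin ligase that marks p53 for destruction and is itself raised by p53. MDM2 read 785.7 on the miR-34a array and 752.7 on the control array, a log2 ratio of 0.052. Its other 4 expressed probe sets lay between -0.20 and 0.11, so no single direction was shared. Over the 5 expressed probe sets the SD was 0.12.

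MDM4, the partner of MDM2 that blocks the activating part of p53, was lower on every expressed probe set. It has been reported as a direct target of miR-34a. The brightest probe set read 503.1 on the miR-34a array and 593.4 on the control array, a log2 ratio of -0.24. The next read 246.0 on the miR-34a array and 381.9 on the control array, at -0.61, and is of the less specific _x_at class. The other 3 expressed probe sets, at -0.48, -0.44 and -0.18, were within background on both arrays. The mean over the 5 was -0.39 ± 0.18 (SD, 5 probe sets). All 5 expressed probe sets were lower in 15.1% of the genes that had 5, so the shared direction is not rare on these arrays.

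The other feedback genes differed little between the arrays. PPM1D encodes WIP1, a phosphatase that switches off p53 and its kinases, and it read 140.8 on the miR-34a array and 140.9 on the control array. CCNG1, the gene of cyclin G1, which brings a phosphatase to MDM2, read 1105 on the miR-34a array and 1260 on the control array, a log2 ratio of -0.20. Both rest on 1 expressed probe set, and the difference of CCNG1 is smaller than the pooled SD between probe sets.

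Among the arrest genes, CDKN1A encodes p21, the inhibitor of cyclin-dependent kinases that carries much of the arrest by p53. CDKN1A read 257.2 on the miR-34a array and 232.6 on the control array, a log2 ratio of 0.13 on its single probe set. Its transcript was thus above background on both arrays in cells without working p53. GADD45A, a stress gene that binds PCNA and kinases of the G2 checkpoint, read 1143 on the miR-34a array and 891.5 on the control array. Its ratio of 0.34 was the highest of the arrest genes and was larger than the pooled SD between probe sets. Ratios of that size are common, since 708 of all 12774 expressed genes lay between 0.3 and 0.4.

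CCNG2, the gene of cyclin G2, a cyclin that rises in cells leaving the cycle, read 101.7 on the miR-34a array and 81.2 on the control array, at 0.27. Its other expressed probe sets were within background on both arrays and gave 0.23 and -0.10. ZMAT3, an RNA-binding zinc finger gene, read 373.1 on the miR-34a array and 372.2 on the control array, and its 4 expressed probe sets lay between -0.064 and 0.20. The polo-like kinase gene PLK3 was within background on both arrays, where its probe sets gave -0.17 and 0.48, and no change is read from it. Its relative PLK2 was under the filter, with a highest signal of 11.9.

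**Figure D3:**
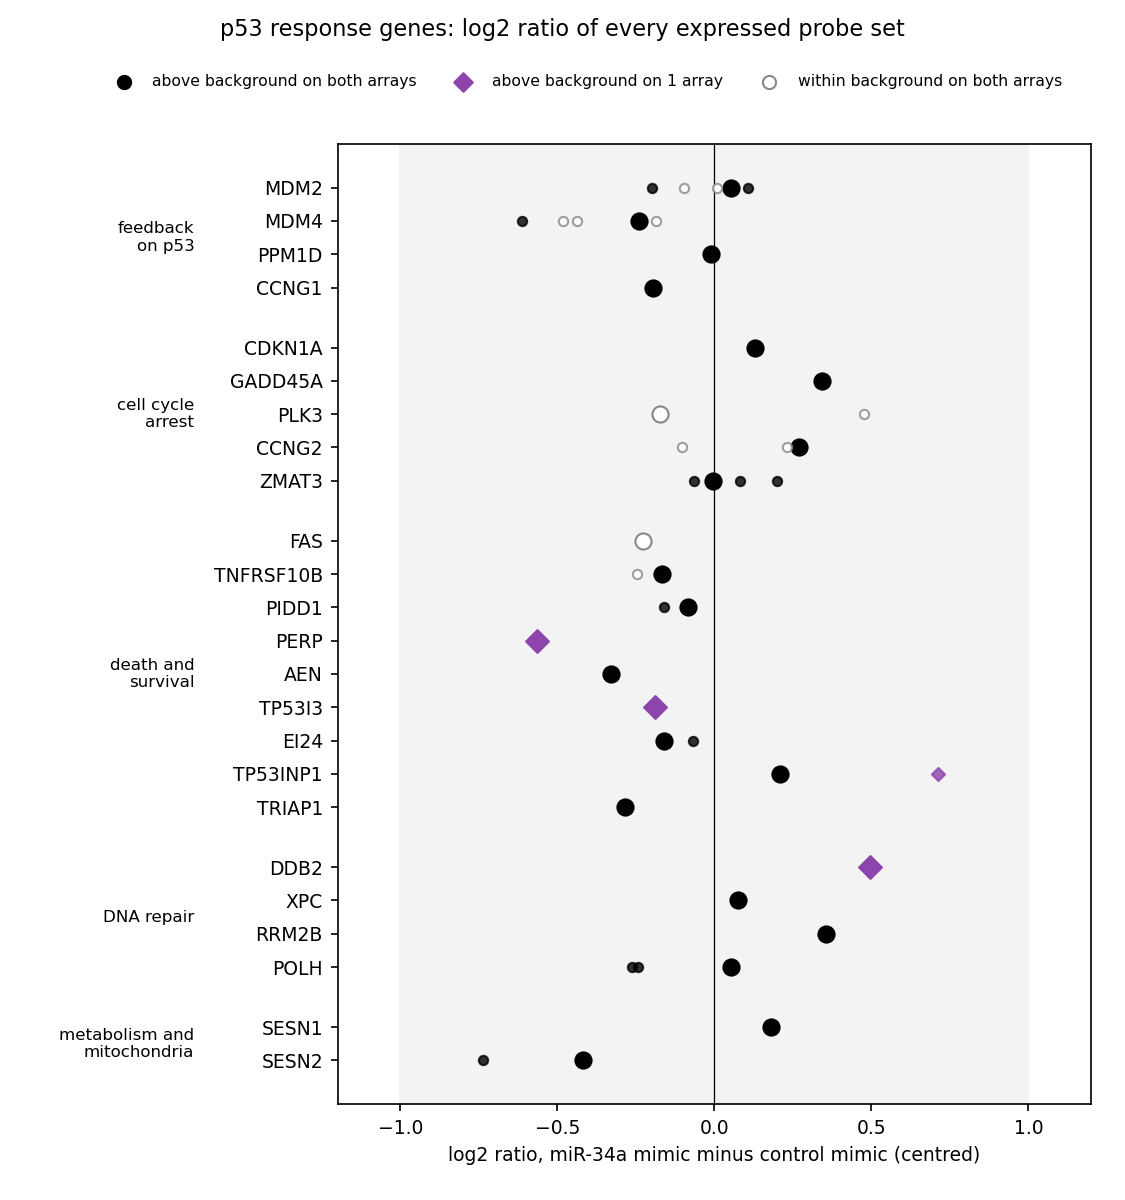
Log2 ratio of miR-34a mimic over control mimic (horizontal axis) for every expressed probe set of the p53 response genes, grouped by role, with a larger mark for the brightest probe set of a gene. Marks differ by background status as the legend gives, grey shading spans changes under 2-fold, and all 46 probe sets lie inside it.

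The death and survival genes were mostly lower by small amounts. TNFRSF10B encodes the death receptor DR5, which starts caspase activation at the cell surface, and it read 178.5 on the miR-34a array and 200.8 on the control array. Its ratio was -0.17, and -0.25 on a second probe set within background. PIDD1, the gene of a scaffold for caspase-2, read 187.2 on the miR-34a array and 198.2 on the control array. Its probe sets gave -0.085 and -0.16. The death receptor gene FAS was within background on both arrays on all of its 5 probe sets, and no change is read from it.

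AEN, the gene of a nuclease that enhances apoptosis, read 204.8 on the miR-34a array and 259.1 on the control array. Its log2 ratio of -0.33 was the lowest of the death and survival genes that were above background on both arrays. PERP, the gene of a membrane protein of desmosomes and of p53-driven death, read 67.6 on the miR-34a array and 106.5 on the control array. The miR-34a signal lay within background, although above 65.2, the highest bacterial signal on that array alone. Taken as a bound, this probe set was at least 1.41-fold lower with the mimic. It is of the less specific _x_at class. The other 4 probe sets of PERP were under the filter, with signals of at most 6.68, so the value rests on 1 probe set that they do not back.

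TP53I3, also called PIG3, encodes a quinone oxidoreductase linked to oxidative stress in p53-driven death. It read 73.1 on the miR-34a array, within background, and 84.7 on the control array, or at least 1.12-fold lower. EI24, a gene of an endoplasmic reticulum protein that acts in autophagy and death, read 1319 on the miR-34a array and 1466 on the control array. Its probe sets agreed closely, at -0.16 and -0.067. TRIAP1 differs from the rest in being a survival gene, whose product restrains apoptosis, and it read 869.0 on the miR-34a array and 1054 on the control array, at -0.28.

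TP53INP1 was the exception among the death and survival genes, being higher on its brightest probe set. It encodes a stress protein that helps to activate p53 and acts in autophagy. The brighter probe set read 279.6 on the miR-34a array and 238.2 on the control array, at 0.21. The dimmer one read 78.4 on the miR-34a array and 41.7 on the control array, the control signal within background, and as a bound it was at least 1.04-fold higher. PHLDA3, a repressor of AKT signalling, was under the filter, with a highest signal of 36.7.

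**Figure D4:**
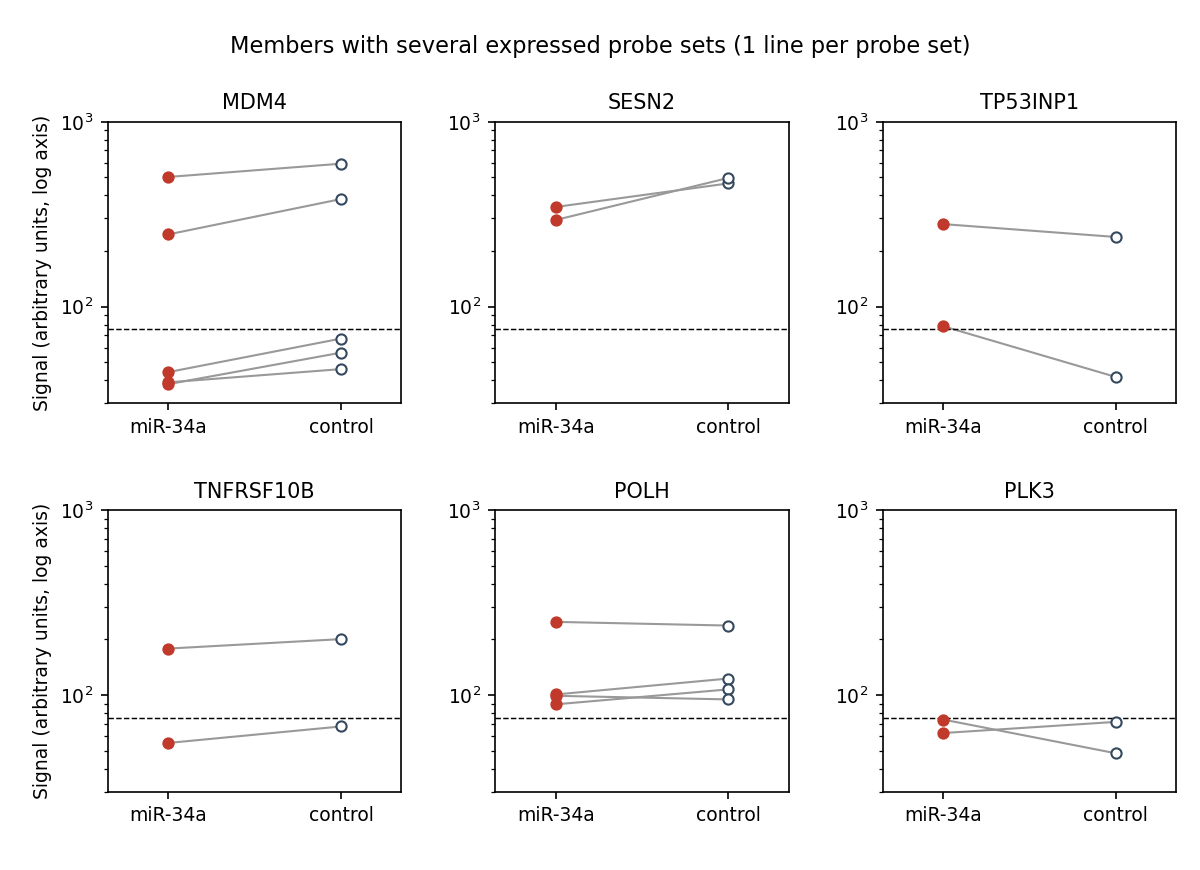
Signal (vertical axis, arbitrary units, log axis) of every expressed probe set on the miR-34a array (left, red) and the control array (right, open) for 6 genes with several expressed probe sets, 1 line per probe set. All lines of MDM4, SESN2 and TNFRSF10B are lower with the mimic, both of TP53INP1 are higher, and those of POLH and PLK3 go both ways, with the dashed line at the background of 75.4.

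The 4 DNA repair genes were higher on their brightest probe sets. DDB2 encodes the subunit that finds ultraviolet damage for nucleotide excision repair. Its single probe set read 97.9 on the miR-34a array and 64.5 on the control array, where it lay within background. On the log2 scale the difference was 0.50, and as a bound DDB2 was at least 1.30-fold higher with the mimic. RRM2B, which encodes the p53-induced ribonucleotide reductase subunit that supplies nucleotides for repair, read 318.6 on the miR-34a array and 244.0 on the control array. Its ratio of 0.36 was the highest of all p53 response genes that were above background on both arrays.

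XPC, the gene of the damage sensor that starts global excision repair, read 435.0 on the miR-34a array and 409.8 on the control array, a log2 ratio of 0.074. POLH encodes polymerase eta, which copies past ultraviolet lesions. It read 248.8 on the miR-34a array and 237.7 on the control array, at 0.053. The probe sets of POLH did not share a direction: 2 of 4 were lower, down to -0.26, all 4 being above background on both arrays.

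Metabolic and mitochondrial genes were measured least well, since 2 of 5 were expressed. SESN2 encodes a sestrin, a stress-induced protein that restrains mTORC1, and is also raised by the stress factor ATF4 without p53. It was lower on both probe sets, each above background on both arrays. The first read 346.1 on the miR-34a array and 464.1 on the control array, at -0.42. The second read 294.3 on the miR-34a array and 496.8 on the control array, at -0.74. Both probe sets are of the less specific _s_at class, so SESN2 has no value without that class. The mean was -0.58 ± 0.23 (SD, 2 probe sets), the lowest mean among the genes with 2 or more expressed probe sets.

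SESN1, the sestrin gene more closely tied to p53, went the other way. It read 110.9 on the miR-34a array and 95.4 on the control array, a log2 ratio of 0.18 on its single probe set, which is smaller than the pooled SD between probe sets. TIGAR, a brake on glycolysis, and SPATA18, a gene of mitochondrial quality control, were under the filter, with highest signals of 35.8 and 40.8.

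Agreement between probe sets was an internal check on the reading of a gene. Probe sets of a gene share the RNA and the array, so their agreement cannot check a direction between cultures. Of 11 genes with 2 or more expressed probe sets, 5 were lower on all of them (MDM4, TNFRSF10B, PIDD1, EI24 and SESN2), beside 28% of all such genes. One, TP53INP1, was higher on all, its dimmer probe set with a control signal within background, beside 26% of all such genes, and 5 were mixed (MDM2, PLK3, CCNG2, ZMAT3 and POLH). Among the genes lower on all, some probe sets of MDM4 and the dimmer one of TNFRSF10B were within background on both arrays. Changes past 2-fold did appear on 5 of the 76 probe sets, or 6.58%, beside 2.49% of all probe sets with 1 symbol. Within background on both arrays, 5 of 41 probe sets of these genes passed 2-fold, or 12.2%, beside 3.26% of all with 1 symbol. All 5 were of this kind and under the filter. One was a CCNG2 probe set that read 1.10 on the miR-34a array and 72.2 on the control array, and the others belonged to MDM2, ZMAT3 and, for a pair of them, FAS. Other probe sets of CCNG2 did not share that drop, and no change is read from any of the 5.

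The start regions of these genes were searched for the p53 half-site, the short consensus that p53 binds in adjacent pairs, to see which carry it. RefSeq windows from 250 bases before to 50 after each start, on GRCh38.p14, were at hand for 25 of the 30 genes. Without a window were GADD45A, PHLDA3, RRM2B, TNFRSF10B and TP53INP1. The consensus reads the same on both strands, and only exact matches were counted. A half-site lay in a window of 7 of the 25 genes, or 28.0%, and of 8.06% of 27305 genes in the table. A gene can have several windows, and by window the counts were 7 of 36 and 2329 of 35116. The genes were chosen as p53 response genes, so a higher share could be foreseen from that choice. A pair with at most 13 bases between lay in 1 of the 25, DDB2, and in 10 of the 27305 genes, or 0.0366%. The matched stretches are shown 5′ to 3′ on the strand of each gene, 30 bases each, with the half-sites in capitals.
DDB2 (chr11:47214724-47215023, plus strand): ggtttGAACAAGCCCtGGGCATGTTTggcg
SESN1 (chr6:109008939-109009238, minus strand): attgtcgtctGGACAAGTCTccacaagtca
EI24 (chr11:125569227-125569526, plus strand): cgtgcggcccGGGCATGCCCagtgcgggcg
AEN (chr15:88621090-88621389, plus strand): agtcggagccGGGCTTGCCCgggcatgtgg
FAS (chr10:88991181-88991480, plus strand): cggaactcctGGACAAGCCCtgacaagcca
PLK2 (chr5:58460037-58460336, minus strand): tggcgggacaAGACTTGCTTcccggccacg
FDXR (chr17:74872945-74873244, minus strand): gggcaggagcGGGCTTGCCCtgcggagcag

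The coordinates are those of the whole window. In DDB2 the half-sites are 1 base apart and lie just past the start. Of the genes with a match, DDB2 and SESN1 were higher with the mimic, at 0.50 and 0.18, and EI24 and AEN lower, at -0.16 and -0.33. FAS was within background and PLK2 under the filter. A match describes these letters and is no evidence of binding, and p53 sites farther away, such as the distal ones of CDKN1A, are outside the windows.

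Other genes of the p53 pathway were also divided between both directions. Of 66 listed genes outside the 30, 52 were expressed, 27 higher and 25 lower, with a median log2 ratio of 0.0027. Past 2-fold there was 1 gene higher and 1 lower. The higher one was GDF15, a secreted stress cytokine that p53 and other stress factors raise. GDF15 read 636.8 on the miR-34a array and 270.4 on the control array, a log2 ratio of 1.18, with 0.59 on its second probe set. The lower one was SIRT1, the deacetylase that acts on p53 and a known miR-34a target, which read 192.5 on the miR-34a array and 450.4 on the control array, at -1.17.

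Next highest were APAF1, the scaffold of the apoptosome, and the early response gene IER3. APAF1 read 223.4 on the miR-34a array and 149.7 on the control array, at 0.52, with a second probe set at 0.062. IER3 read 746.5 on the miR-34a array and 546.8 on the control array, at 0.43. Next lowest were RCHY1, which encodes the p53 ubiquitin ligase Pirh2, and SFN, which encodes the G2 checkpoint protein 14-3-3 sigma.

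RCHY1 read 360.0 on the miR-34a array and 547.1 on the control array, at -0.59, with a second probe set at -0.29. SFN read 339.9 on the miR-34a array and 498.1 on the control array, at -0.54, and its 3 probe sets lay between -1.15 and -0.19. The p53 relative TP73 and the p16 and ARF locus CDKN2A were within background on both arrays, TP73 reading 44.2 on the miR-34a array and 39.1 on the control array and CDKN2A 36.4 on the miR-34a array and 39.1 on the control array. TP63 was not analysed here.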

How the data were processed

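Total RNA of 1 miR-34a mimic and 1 control mimic culture was measured. Per the labels' protocols, Trizol was used for the RNA and biotinylated cRNA was hybridised. The deposited table gives each probe set a linear intensity with a floor of 1. Its software, background correction and scaling are not given in the sources consulted, and it has no detection calls, which affects dim probe sets most. The table held 0 columns of other samples.

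The log2 of each deposited intensity was taken after adding a pseudocount of 14.9, the 25th percentile over both arrays. A gene took its brightest probe set among those with a mean level at or above the median of 54613 probe sets, a signal of about 39.0. The median ratio, 0.0090, was subtracted. Only the 41091 probe sets with 1 symbol in the array annotation were used. Another 1801 had several symbols and 11721 had none. A signal on 1 side within background gives a bound, the brighter signal over the lowest signal above background on the other array.

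The genes and lists were chosen with earlier results of these data known. Values are printed for each of the 30 genes above background on 1 or both arrays, for TP73, CDKN2A, CDK6 and CCND1, and for the 3 highest and 3 lowest of the other pathway genes. Gene roles were assigned by hand. One gene of that rule is not given here. With 1 array per group the design allows no test, so genes were counted by size. Alternatives changed the pseudocount, filter, centring, normalization (quantile, and loess at span 0.3), probe sets per gene and size threshold. The arithmetic was also tested on simulated data with known changes. Sequences are from RefSeq. Python 3.11.15, NumPy 2.4.6, pandas 2.3.3, statsmodels 0.14.6 and matplotlib 3.10.9 were used.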

Additional observations from a re-analysis of the deposited data

How the results depend on the processing

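The counts of p53 response genes at least 2-fold higher and lower were 0 and 0 under each alternative run. At 1.5-fold, with that threshold tried under the alternatives after seeing the data, 1 gene was lower with a pseudocount of 3.73, with quantile and with loess normalization, each time PERP, and 1 was higher with no filter, PLK2, whose signals were at most 11.9. The median log2 ratio, -0.047, lay between -0.059 with quantile normalization and 0.0055 without the _s_at, _x_at and _a_at probe set classes, where 16 genes were left, so its sign is not settled. Genes higher were 10 of 24 in the main run, 8 of 16 without those classes and 14 of 28 with no filter. With a filter at the 75th percentile they were 9 of 17, so the direction of the majority is not settled. The count of death and survival genes lower, an alternative chosen after seeing the data, was 5 of 6 under a filter at the 75th percentile, 5 of 6 among genes above background on both arrays and 4 of 5 without those classes, since fewer genes were left. Of 244 single gene values under 11 alternatives, 243 moved by less than the SD over the gene's own expressed probe sets, or the pooled SD of 0.24 for a gene with 1. The exception was PIDD1, at -0.15 without those classes. Much of this count was fixed in advance. Changes of filter or centring kept a gene's probe set and moved its value only by the shift of the median. Averaging did the same for genes with 1 expressed probe set, and genes removed by a filter gave no value. Against the pooled SD for every gene, 2 values moved further, both as means over probe sets: PLK3, at 0.16, and TP53INP1, at 0.47. The signs of MDM2, PPM1D, PLK3, ZMAT3 and POLH changed under at least 1 alternative. No paired analysis was possible because each group holds 1 array.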

Other observations

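Kinases and cofactors that act on p53 were measured beside its response genes, and the genes named here were chosen after their values were seen. Of 16 expressed, 8 were higher and 8 lower, with a median log2 ratio of -0.055. CHEK1, the checkpoint kinase of stalled replication, read 307.7 on the miR-34a array and 383.4 on the control array, and its 3 expressed probe sets lay between -0.64 and -0.11. USP7, which removes ubiquitin from MDM2 and p53, read 1058 on the miR-34a array and 1259 on the control array and was lower on 4 of 4 expressed probe sets. The acetyltransferase gene KAT5 read 256.1 on the miR-34a array and 314.7 on the control array and was lower on 3 of 3. ATR, the kinase that activates CHEK1, read 568.4 on the miR-34a array and 479.2 on the control array and was higher on both expressed probe sets, at 0.23 and 0.35. A shared direction was common on these arrays. Where several probe sets of a gene passed the filter, every one was lower in 28% of cases and higher in 26%. Shares for exactly 3 or 4 probe sets are not given here.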
